A study of Mus musculus with 19 samples.

Results

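Laminins are proteins of 3 chains, 1 alpha, 1 beta and 1 gamma, that polymerise into the sheet on which epithelial, endothelial and muscle cells rest, the basement membrane. Cells hold on to this sheet through integrins, dystroglycan and the surface protein BCAM, and perlecan links it to other matrix proteins. In the liver, bile ducts and vessels rest on a basement membrane, whereas hepatocytes face a sinusoid that has no continuous one. The 10 genes described here were taken from the counts table by symbol. They are the laminin chains Lama5, Lamb1, Lamb2 and Lamc1, the integrin subunits Itgb4, Itga6 and Itga3, the receptors Bcam and Dag1, and Hspg2, which encodes perlecan. All 10 were among the 35976 rows, and all 10 passed the filter on low counts that left 16463 genes.

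The genes were chosen by their place in the laminin family and selected on genotype differences in these counts that were already known. Which of the differences is not recorded, so all 3 genotype contrasts are treated as used: their values below describe the 10 genes and are not independent support for any of them.

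Livers of 6 Homo, 6 Het and 7 WT littermate mice were compared by RNA sequencing, 1 library per mouse. Homo, Het and WT are the labels' words for the genotype at Pkd1, the gene of polycystin-1. All 3 groups, WT included, received AAV-Cre, a viral vector carrying Cre recombinase, and all were kept for 3 months on Western diet with carbon tetrachloride (CCl4), a model of non-alcoholic steatohepatitis. The labels give neither age, sex, litter or batch nor the promoter that drives Cre, and the series title speaks of mutant clones, so a liver may hold mutant and unrecombined cells side by side. Each title carries a number, called the mouse number here, whose meaning the labels do not state.

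Library totals ran from 25.8 to 42.1 M counts. Hepatocyte markers, albumin among them, summed to 26479 to 31889 CPM in Homo livers, 28290 to 30157 CPM in Het livers and 25972 to 31415 CPM in WT livers. CPM, the usual depth-scaled count, was taken after TMM scaling. Pkd1 counts were at 334 to 380 CPM in Homo livers, 340 to 445 CPM in Het livers and 328 to 452 CPM in WT livers, and Pkd1 was not called in any comparison. The labels give neither the design of the Pkd1 allele nor the share of cells that recombined, so counts over the whole gene do not check the genotype labels. A gene is called below where its adjusted p from edgeR's quasi-likelihood test, over all 16463 tested genes, was under 0.05.

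Lama5 and Bcam, which both stood higher in Homo livers, encode a ligand and its receptor, since the protein of Bcam binds the laminin alpha5 chain. Their promoters are shown because both genes were highest in the same Homo mice, with that of Hspg2, whose log2 fold changes lay between -0.05 and -0.02, beside them. The windows come from RefSeq on GRCm38.p6 and run from 250 bases before to 50 bases after the annotated start. Capitals mark the GC box GGGCGG and the CACCC-type box GGGNGTG, on either strand; where matches of the 2 motifs share bases, the run is in capitals throughout.
Lama5, chr2:180225810-180226109, minus strand: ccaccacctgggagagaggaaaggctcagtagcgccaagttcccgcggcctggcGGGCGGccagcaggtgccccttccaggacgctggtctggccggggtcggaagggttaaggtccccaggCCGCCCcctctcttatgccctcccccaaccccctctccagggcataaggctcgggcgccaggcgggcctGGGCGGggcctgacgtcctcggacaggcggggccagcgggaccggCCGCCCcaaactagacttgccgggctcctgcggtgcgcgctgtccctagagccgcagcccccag
Bcam, chr7:19770483-19770782, minus strand: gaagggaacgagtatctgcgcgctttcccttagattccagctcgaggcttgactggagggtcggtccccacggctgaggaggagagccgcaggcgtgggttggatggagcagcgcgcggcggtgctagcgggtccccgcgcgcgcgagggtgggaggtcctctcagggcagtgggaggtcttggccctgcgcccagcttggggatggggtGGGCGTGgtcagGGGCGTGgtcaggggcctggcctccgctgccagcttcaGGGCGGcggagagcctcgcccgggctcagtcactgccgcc
Hspg2, chr4:137468553-137468852, plus strand: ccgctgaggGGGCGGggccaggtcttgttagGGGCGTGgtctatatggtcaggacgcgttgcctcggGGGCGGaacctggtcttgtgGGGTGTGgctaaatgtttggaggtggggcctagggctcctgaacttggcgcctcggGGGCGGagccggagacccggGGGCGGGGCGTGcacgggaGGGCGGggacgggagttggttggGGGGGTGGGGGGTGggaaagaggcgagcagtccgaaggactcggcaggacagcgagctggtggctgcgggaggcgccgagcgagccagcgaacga
The Lama5 window holds 4 GC boxes and no CACCC-type box, the Bcam window 1 and 2, and the Hspg2 window 5 and 5. Of 32851 promoter windows in the RefSeq table, 35.7% hold at least 1 GC box and 29.2% at least 1 CACCC-type box. GC content was 72.7% in the Lama5 window, 71.0% in that of Bcam and 70.3% in that of Hspg2, against a median of 52.7% over all windows. Neither the letters GGAATG (a TEAD-type motif, in 14.7% of windows) nor TGANTCA (AP-1-type, in 7.81%) occurs in these 3 windows on either strand. The table gave windows for 7 of the 10 genes, with Lamc1, Itgb4 and Itga6 not matched.

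Homo against WT asks what differs in livers labelled Homo at Pkd1. Bcam, Lama5 and Itgb4 rose, so that 3 of the 10 genes were called, all higher. Of all tested genes, 0.48% were called and 0.292% were called higher. The other 7 were not called. The Homo and WT mice did not overlap for 1 of the 10, Bcam, which was higher, against 0.528% of all tested genes that did not overlap and were higher. Of the 10 log2 fold changes 8 lay above 0, with a median of 0.33, against a median of 0.00191 and 50.3% above 0 over all tested genes. In RNA from whole liver, more cells of a type and more RNA per cell cannot be told apart.

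**Figure D1:**
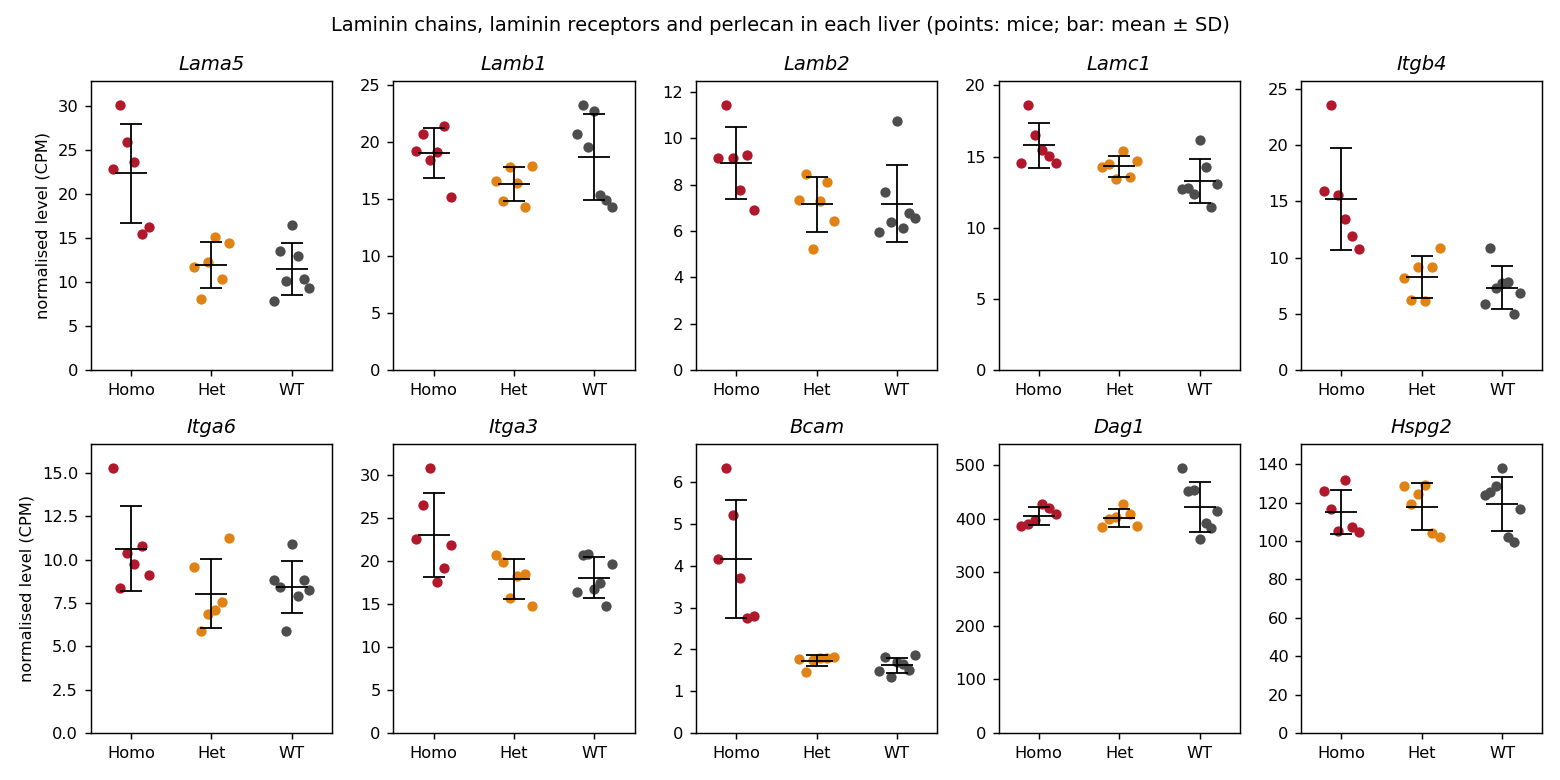
Normalised level in CPM (vertical axis, from 0) of each of the 10 genes in Homo, Het and WT livers; points are mice and the bar with whiskers is mean ± SD. Bcam in the 6 Homo mice, at 2.74 to 6.35 CPM, sits above every Het and WT mouse, while the genotypes overlap for Dag1 and Hspg2.

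Among the ligands, Lama5 is the alpha chain of the laminins found under many adult epithelia and endothelia. The gene lies on chromosome 2, 180176373 to 180225859 (GRCm38, GENCODE). Its lowest, median and highest values were 15.5, 23.2 and 30.1 CPM in Homo livers, 8.05, 12.0 and 15.1 CPM in Het livers and 7.83, 10.4 and 16.4 CPM in WT livers. Of the 6 Homo mice, 4 exceeded the highest WT mouse and all 6 exceeded the highest Het mouse. Homo over WT, the log2 fold change was 0.96 ± 0.18 (SE). Its call ended without WT replicate 3 and without Homo replicates 2, 3 or 4, at log2 fold changes between 0.86 and 0.93. It also ended in 4 of 11 other alternatives, namely with the mouse number in the model, with mice 1 to 3 left out, inside mice 8 to 13, and with Homo mice 8 and 10 left out, at values between 0.81 and 1.10. Among the 11, the looser threshold of an adjusted p under 0.10 uses the same fit and cannot end a call.

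Lamb1 and Lamb2, beta chains that can pair with the alpha5 chain, and Lamc1, the gamma chain of most laminins, were not called. Lamc1 (chromosome 1, 153218922 to 153332786) was at 14.5, 15.3 and 18.6 CPM (lowest, median, highest) in Homo livers, 13.5, 14.4 and 15.4 CPM in Het livers and 11.4, 12.8 and 16.2 CPM in WT livers. The groups overlapped, with 2 Homo mice above the highest WT mouse, and Homo over WT the log2 fold change was 0.25 ± 0.08. Lamb2 (chromosome 9, 108479736 to 108490530) was at 8.94 ± 1.54 CPM in Homo livers (SD, n = 6), 7.14 ± 1.17 CPM in Het livers (n = 6) and 7.18 ± 1.67 CPM in WT livers (n = 7). Its log2 fold change was 0.32 ± 0.15, and 1 Homo mouse exceeded every WT mouse. Lamb1 (chromosome 12, 31265234 to 31329644) was at 19.0 ± 2.19 CPM in Homo livers, 16.3 ± 1.49 CPM in Het livers and 18.7 ± 3.77 CPM in WT livers. Its log2 fold change was 0.02 ± 0.12, and the Homo mice lay within the range of the WT mice.

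Itgb4 encodes the integrin beta4 subunit, which pairs with the product of Itga6 in hemidesmosomes, the junctions that fix epithelial cells to laminin. It lies on chromosome 11, 115974709 to 116008412. Itgb4 was at 10.8, 14.5 and 23.5 CPM (lowest, median, highest) in Homo livers, 6.13, 8.69 and 10.8 CPM in Het livers and 4.96, 7.27 and 10.9 CPM in WT livers. All Homo mice but 1 exceeded the highest WT mouse, and the log2 fold change was 1.05 ± 0.19. The call held in all 19 fits that left out 1 library. It ended within mice 8 to 13, where 2 Homo mice stand against 4 WT mice and the log2 fold change was 1.52, and without Homo mice 8 and 10, where it was 0.81. A long non-coding RNA on the other strand, B230344G16Rik, shares 537 exon bases with Itgb4, or 7.66% of its exon length. That RNA had 0 to 8 reads per Homo library, 1 to 3 per Het library and 0 to 2 per WT library, against 443 to 831, 188 to 427 and 162 to 408 reads of Itgb4. Reads from the shared stretch cannot be told apart without strand.

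Itga6 and Itga3 encode alpha subunits that bind laminin, Itga6 with beta1 or beta4 and Itga3 with beta1. Neither was called. Itga6 (chromosome 2, 71745616 to 71858416) was at 8.39, 10.1 and 15.3 CPM (lowest, median, highest) in Homo livers, 5.86, 7.33 and 11.3 CPM in Het livers and 5.89, 8.44 and 10.9 CPM in WT livers. Only Homo replicate 1, mouse 8, exceeded the highest WT mouse, and the log2 fold change was 0.33 ± 0.16. Itga3 (chromosome 11, 95044474 to 95076801) was at 17.6, 22.2 and 30.8 CPM in Homo livers, 14.7, 18.4 and 20.7 CPM in Het livers and 14.7, 17.5 and 20.8 CPM in WT livers. Its log2 fold change was 0.35 ± 0.12, with 4 of the 6 Homo mice above the highest WT mouse.

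Bcam encodes the basal cell adhesion molecule, also known as Lutheran. The gene lies on chromosome 7, 19756131 to 19771016, and shares 52 exon bases with an antisense RNA, Gm26600. It had the fewest reads of the 10 genes, 102 to 224 per Homo library, 44 to 72 per Het library and 46 to 68 per WT library. In CPM the lowest, median and highest values were 2.74, 3.94 and 6.35 in Homo livers, 1.46, 1.78 and 1.82 in Het livers and 1.35, 1.64 and 1.85 in WT livers. Every Homo mouse stood above every Het and WT mouse, which was so for 0.14% of all tested genes. Homo over WT, the log2 fold change was 1.36 ± 0.17. The call held in all 19 fits that left out 1 library and in 10 of the 11 other alternatives, and ended within mice 8 to 13, where the log2 fold change was 1.64. Those 11 again include the looser threshold, which cannot end a call.

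Dag1 encodes dystroglycan, a laminin receptor that links the basement membrane to the actin skeleton, and Hspg2 encodes perlecan, a heparan sulphate proteoglycan of basement membranes. Both were measured with many more reads and varied little. Dag1 (chromosome 9, 108204634 to 108263958) was at 405 ± 16.5 CPM in Homo livers, 401 ± 16.3 CPM in Het livers and 421 ± 47.2 CPM in WT livers, with a log2 fold change of Homo against WT of -0.06 ± 0.06. Hspg2 (chromosome 4, 137468769 to 137570630) was at 115 ± 11.5 CPM in Homo livers, 118 ± 12.1 CPM in Het livers and 119 ± 14.1 CPM in WT livers, with a log2 fold change of -0.05 ± 0.09. The wide spread of Dag1 in WT livers came from 3 mice: WT mice 1 to 3 were at 452 to 495 CPM, and all 16 other mice at 361 to 428 CPM. Without mice 1 to 3 the log2 fold change of Dag1 in Homo against WT was 0.06, and that in Het against WT was 0.05.

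**Figure D2:**
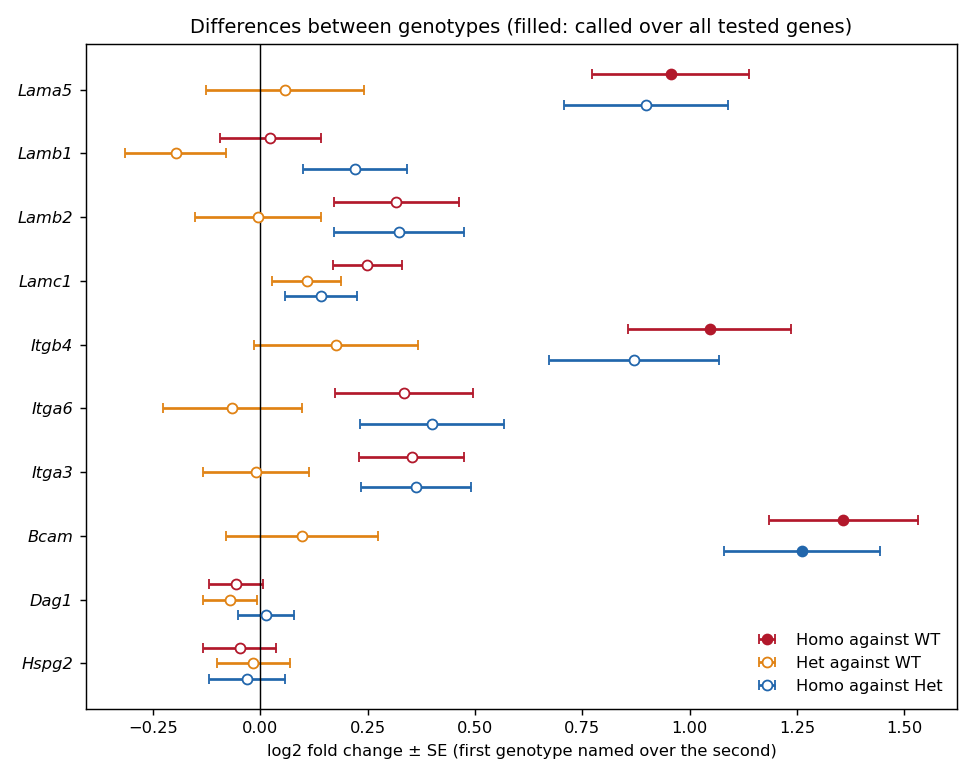
Log2 fold change with its SE (horizontal axis) of the 10 genes in 3 comparisons, first-named genotype over the second; filled points were called. Bcam, Lama5 and Itgb4 stand near or above 1 in Homo against WT, and all 10 points of Het against WT lie between -0.20 and 0.18.

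Het against WT asks the same of livers labelled Het. None of the 10 genes was called by edgeR (0.0243% of all tested genes were), none had an unadjusted p under 0.05, and DESeq2 and limma-voom called 0. Log2 fold changes ran from -0.20 ± 0.12 for Lamb1 to 0.18 ± 0.19 for Itgb4, with 4 of 10 above 0 and a median of -0.01. Bcam, at 1.73 ± 0.14 CPM in Het livers (SD, n = 6) and 1.62 ± 0.19 CPM in WT livers (n = 7), had a log2 fold change of 0.10 ± 0.18.

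Homo against Het compares the mutant genotypes with each other, and shares the Homo mice with the first comparison. Bcam rose by 1.26 ± 0.18 on the log2 scale and was the 1 gene of the 10 called, against 0.182% of all tested genes called and 0.146% called higher. Its call held in all 19 fits that left out 1 library, and ended within mice 14 to 20 and without Homo mice 8 and 10, at log2 fold changes of 1.00 and 1.05. Lama5 was at 0.90 ± 0.19 and Itgb4 at 0.87 ± 0.20; edgeR called neither, while DESeq2 called both. The groups did not overlap for Bcam and Lama5, both higher, as were 0.51% of all tested genes. For Itgb4 5 of the 6 Homo mice exceeded the highest Het mouse. The other 7 had log2 fold changes between -0.03 for Hspg2 and 0.40 ± 0.17 for Itga6, with 9 of all 10 genes above 0.

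**Figure D3:**
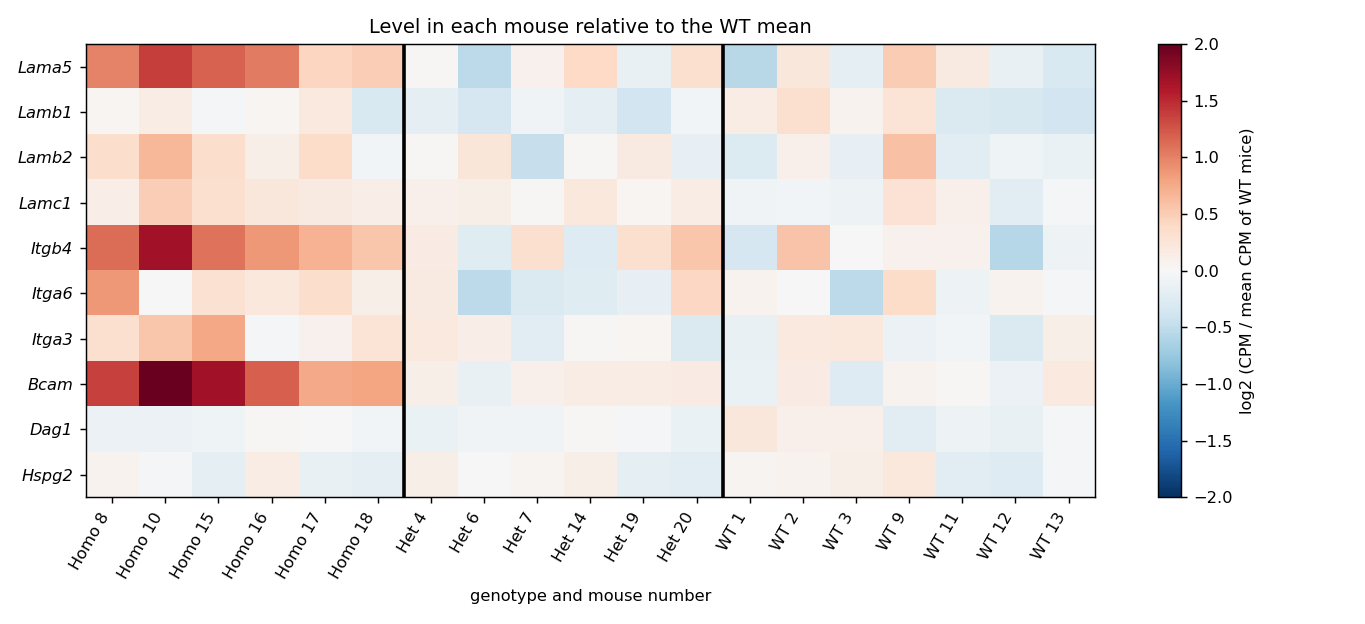
Colour gives log2 of the CPM in each mouse over the mean of the 7 WT mice, with genes down the page and mice, by genotype and mouse number, across it. Lama5, Itgb4 and Bcam are reddest in Homo mouse 10 and palest among Homo mice in mice 17 and 18.

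The 6 Homo mice differed among themselves, and Bcam, Lama5 and Itgb4 were highest and lowest in the same mice. Mouse 10 was the highest Homo mouse for all 3, at 3.92 times the WT mean for Bcam, 2.61 times for Lama5 and 3.21 times for Itgb4. Mice 17 and 18 were the lowest for all 3, at 1.69 and 1.73 times the WT mean for Bcam, 1.34 and 1.41 times for Lama5 and 1.62 and 1.47 times for Itgb4. Mouse 10 was also the highest Homo mouse for Lamb2, at 11.4 CPM or 1.59 times the WT mean, and for Lamc1, at 18.6 CPM or 1.40 times, while mouse 18 was the lowest for Lamb2, at 6.89 CPM, and next to lowest for Lamc1, at 14.6 CPM. Itga6 did not follow this order, with mouse 10 the lowest Homo mouse, at 8.39 CPM, and mouse 8 the highest. Itga3 was highest in mouse 15, at 30.8 CPM, and lowest in mouse 16, at 17.6 CPM. The coefficient of variation of Bcam was 33.9% in Homo livers, 7.91% in Het livers and 11.4% in WT livers, whereas that of Lama5 was 25.3%, 21.8% and 25.5% in the same order of genotypes.

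With the genotype means subtracted from log2 CPM, the 10 genes form 45 pairs, of which 36 had a Pearson r above 0 and 7 above 0.5 over the 19 libraries. These r describe likeness, with no test, and the libraries share whatever sets their composition. The pair most alike was Lama5 and Bcam (r = 0.70, rho = 0.71), then Itgb4 and Bcam (r = 0.70, rho = 0.64) and Lama5 and Lamc1 (r = 0.65, rho = 0.59). Lama5 and Dag1 were least alike (r = -0.43). Over 13263 genes with a mean of at least 1 CPM, the genes most like Bcam were Cd24a (r = 0.82), Csf3r and Hspbp1 (0.77 each). Those most like Lama5 were Prkd2 (0.82), Zfp462 (0.80) and Sema3c (0.79), and those most like Itgb4 were Lztfl1 (0.77), Pkhd1 (0.76) and Bcl11a (0.75). Closest to the other 7 were Slc13a3, Smo and Sod3 for Lamb1, Ccdc88c, Zfp703 and Acox3 for Lamb2, Ccdc88c, Kctd12 and Ccdc71l for Lamc1, Ggct, Nenf and Ift80 for Itga6, and Ndufaf1, Rbks and Mettl25 for Itga3. For Dag1 they were Vasn, Frmd4b and Jdp2, and for Hspg2 Tmem265, 4732419C18Rik and Map3k3. These 21 values of r lay between 0.73 and 0.86. All the genes most like 1 of the 10 are the highest by r of 13263 over 19 libraries. How high r gets among so many unrelated genes was not tested.

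The mouse number was also fitted as a slope beside genotype, a choice made after seeing the data. It treats the number as a quantity, which the labels do not say it is. Of all tested genes 6.4% had a slope at adjusted p under 0.05 (edgeR's quasi-likelihood test), and of the 10 genes 0 did, with 1 at an unadjusted p under 0.05. That gene was Hspg2, at -0.18 ± 0.06 on the log2 scale per 10 mouse numbers (adjusted p = 0.0838). Lama5, Itgb4 and Bcam were at 0.04 ± 0.16, -0.11 ± 0.16 and -0.06 ± 0.15 per 10 numbers. WT mice carry the numbers 1 to 3, 9 and 11 to 13, Het mice 4, 6, 7, 14, 19 and 20, and Homo mice 8, 10 and 15 to 18. Number and genotype thus partly go together, and a slope fitted beside genotype separates the 2 only in part.

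**Figure D4:**
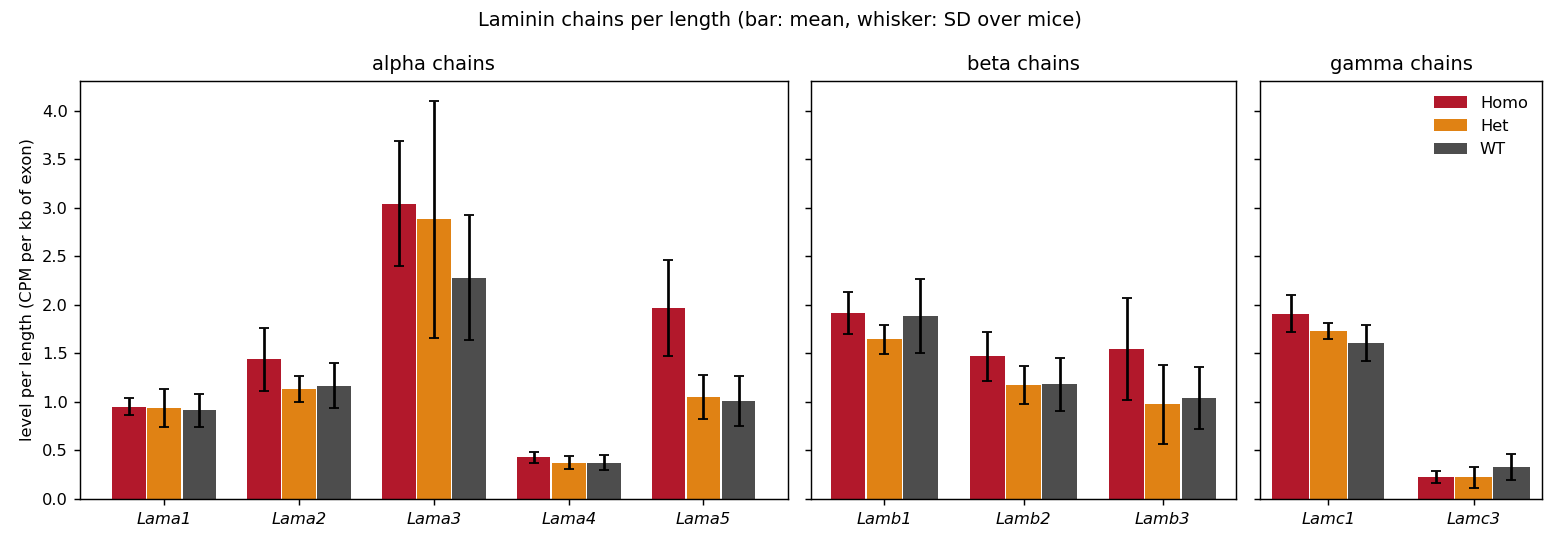
Level per length (CPM per kb of exon, vertical axis from 0) of laminin alpha, beta and gamma chain genes in Homo, Het and WT livers; bars are means and whiskers SD over mice. Lama5 stands at 1.97, 1.05 and 1.01 CPM per kb, and Lamc1 at 1.91, 1.73 and 1.61 CPM per kb, in Homo, Het and WT livers.

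Levels of different genes can be compared only per length, here as CPM per kb of exon in GENCODE, which may differ from the annotation used for counting. Among the 10 genes Dag1 stood highest, at 63.7 ± 2.60 CPM per kb in Homo livers, 63.1 ± 2.56 in Het livers and 66.3 ± 7.43 in WT livers, and Hspg2 next, at 8.06 ± 0.80, 8.24 ± 0.85 and 8.33 ± 0.98 CPM per kb. Itga3 followed in all 3 genotypes, at 4.04 ± 0.86 CPM per kb in Homo livers, 3.14 ± 0.41 in Het livers and 3.16 ± 0.41 in WT livers. Bcam was lowest in Het livers, at 0.54 ± 0.04 CPM per kb, and in WT livers, at 0.51 ± 0.06, while in Homo livers, at 1.30 ± 0.44, it overlapped Itga6 at 1.18 ± 0.27 and Lamb2 at 1.47 ± 0.25. The 3 chains Lama5, Lamb1 and Lamc1, which can form 1 molecule, stood at 1.97 ± 0.50, 1.92 ± 0.22 and 1.91 ± 0.19 CPM per kb in Homo livers, within their spread of each other. In WT livers they stood at 1.01 ± 0.26, 1.89 ± 0.38 and 1.61 ± 0.19 CPM per kb.

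Among the 5 alpha chains, Lama5 made 25.1 ± 6.29% of the summed level per length in Homo livers (SD, n = 6), 16.9 ± 4.34% in Het livers (n = 6) and 17.8 ± 4.38% in WT livers (n = 7). Lama3, the alpha chain of epithelial laminins of skin and other stratified tissues, made the largest share in each genotype, at 38.7 ± 5.96%, 43.5 ± 12.4% and 39.3 ± 8.16%. The ratio of Lama5 to Lamc1 per length was 1.02 ± 0.19 in Homo livers, 0.61 ± 0.12 in Het livers and 0.63 ± 0.11 in WT livers. Of the beta integrins, Itgb1, the partner of most laminin-binding alpha subunits, was at 16.8 ± 0.18 CPM per kb in Homo livers, 17.0 ± 0.72 in Het livers and 16.5 ± 0.58 in WT livers. The ratio of Itgb4 to Itgb1 per length was 0.129 ± 0.037 in Homo livers, 0.0702 ± 0.0175 in Het livers and 0.0631 ± 0.0153 in WT livers, and its lowest Homo value, 0.0922, lay just above its highest WT value, 0.0915, and below its highest Het value, 0.0935. Itgb4 over Itga6 was at 1.93 ± 0.85 in Homo livers, 1.35 ± 0.25 in Het livers and 1.15 ± 0.36 in WT livers, and these groups overlapped.

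The wider family was read from lists that leave out the 10 genes. Of 7 other laminin chains, 0 were called in any comparison by edgeR, DESeq2 or limma-voom, and 3 had an unadjusted p under 0.05 in Homo against WT. Their median log2 fold change there was 0.30, with 6 of 7 above 0. Lamb3, an epithelial beta chain, was at a log2 fold change of 0.57 ± 0.25 (adjusted p = 0.348) and Lama2, a chain of muscle and mesenchyme, at 0.30 ± 0.14 (adjusted p = 0.383, edgeR's quasi-likelihood test). Lama1 lies on chromosome 17, as does Pkd1, and was at 0.06 ± 0.13.

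Of 8 other receptors that bind laminin, again 0 were called in any comparison by the 3 tools, with 3 at an unadjusted p under 0.05 in Homo against WT and a median log2 fold change of -0.09. Itga2, an alpha subunit for collagen and laminin, was at 0.64 ± 0.29. The syndecans Sdc2 and Sdc4, heparan sulphate proteoglycans of the cell surface, were at -0.13 ± 0.06 and -0.37 ± 0.13. Adjusted p of these 3 genes lay between 0.255 and 0.376 (edgeR's quasi-likelihood test). Sdc4 stood apart in 3 WT livers, with 156, 143 and 184 CPM for mice 1, 2 and 3. The other WT livers were at 96.2 to 104 CPM, the Het livers at 98.8 to 121 CPM and the Homo livers at 80.8 to 105 CPM. Sdc2 had 63.3, 63.6 and 70.4 CPM in those mice, while no other WT liver exceeded 61.2 CPM and no Homo liver 62.0 CPM. Whether these 3 mice account for the lower Homo values was not tested. Of 17 other basement membrane genes edgeR called 0, with 4 at an unadjusted p under 0.05 in Homo against WT, while DESeq2 and limma-voom each called Col18a1, lower. Col18a1, the core protein of collagen XVIII, was at 2061 ± 197 CPM in Homo livers (SD, n = 6), 2142 ± 185 CPM in Het livers (n = 6) and 2486 ± 170 CPM in WT livers (n = 7), with a log2 fold change of Homo against WT of -0.27 ± 0.07 (adjusted p = 0.0768 with edgeR). Agrn (agrin, another heparan sulphate proteoglycan) was at 0.23 ± 0.08 (adjusted p = 0.207) and Col4a6, a type IV collagen chain, at 0.92 ± 0.32 (adjusted p = 0.234, edgeR's quasi-likelihood test).

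Inside the cell, of 7 hemidesmosome and keratin linker genes 4 were tested and 0 called. Col17a1, Krt5 and Krt14, which mark hemidesmosomes and basal cells of skin, had too few reads to be tested. Plec (plectin), which ties integrin beta4 to keratins, was at 0.09 ± 0.06, Dst (dystonin) at 0.15 ± 0.07 and the hepatocyte keratin Krt8 at -0.22 ± 0.12 on the log2 scale in Homo against WT (adjusted p between 0.363 and 0.588, edgeR's quasi-likelihood test). Of 15 genes of the dystroglycan complex and its glycosylation 0 were called, with Pomgnt1, a glycosyltransferase, at -0.26 ± 0.11, Sntb2, a syntrophin, at 0.30 ± 0.15 and Utrn (utrophin) at 0.09 ± 0.05. Of 12 genes of the integrin adhesion machinery edgeR called 0, and the median log2 fold change was -0.01. DESeq2 called Fermt1, an epithelial kindlin that activates integrins, in Homo against Het, where edgeR gave 1.52 (adjusted p = 0.176, edgeR's quasi-likelihood test). Fermt1 was at 1.45 to 4.51 CPM in Homo livers, 0.19 to 1.65 CPM in Het livers and 0.73 to 2.24 CPM in WT livers, and in Homo against WT its log2 fold change was 1.08 ± 0.36. Ilk and Tln1, which couple integrins to actin, were at -0.15 ± 0.06 and -0.17 ± 0.06. In these 3 lists the genes with an unadjusted p under 0.05 in Homo against WT were 1, 1 and 4, and DESeq2 and limma-voom called 0 in that comparison. Over the 6 lists of the wider family, the genes at an unadjusted p under 0.05 numbered 0 to 4 a list in Het against WT and 0 to 3 a list in Homo against Het.

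**Figure D5:**
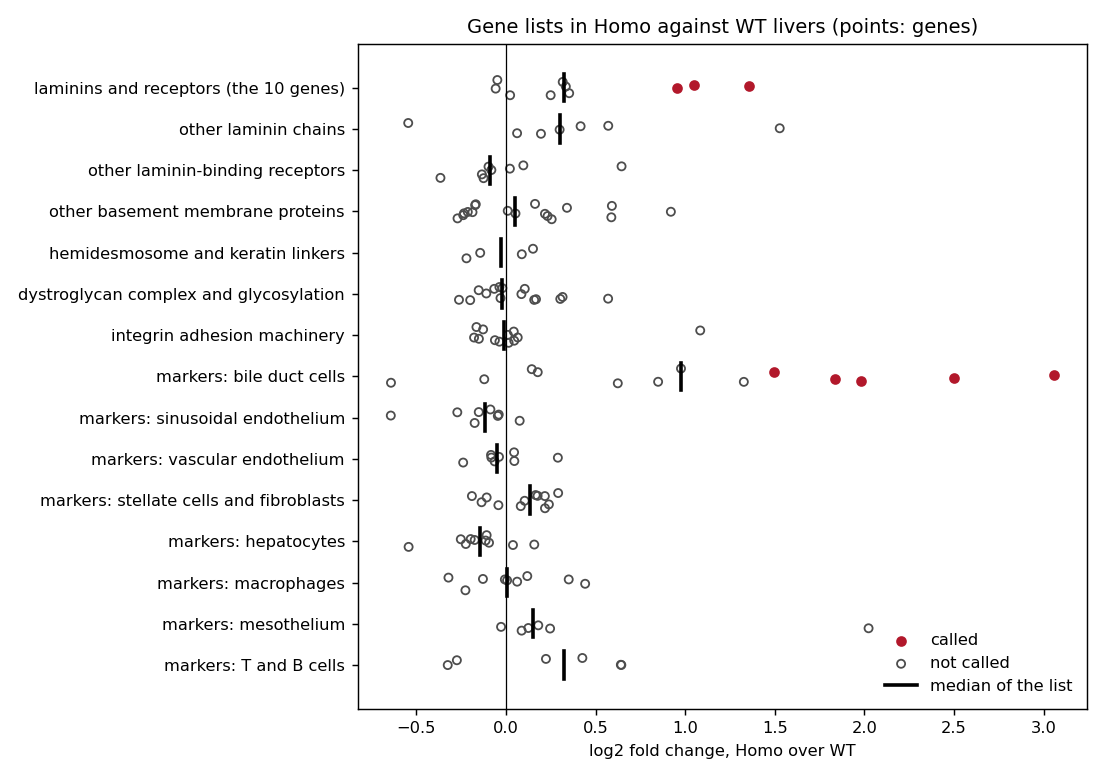
Log2 fold change of Homo over WT (horizontal axis) for the tested genes of each list, 1 point per gene, filled where called, with the median of the list as a bar. Called genes occur in the 10 laminin and receptor genes and among bile duct markers, whose median is 0.98.

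Markers of other cell types were read beside these values. Of 15 bile duct markers 13 were tested and 5 were called in Homo against WT, all higher: Krt7, Krt19, Muc1, Tspan8 and Cd24a (log2 fold changes 1.50 to 3.06). In Homo against Het 5 were called, with Epcam in place of Muc1, and in Het against WT 0 (1 at an unadjusted p under 0.05, and 0 with DESeq2 or limma-voom). DESeq2 called 6 in each of the first 2 comparisons, and limma-voom 4 in Homo against WT and 2 in Homo against Het. The summed level of the 15 was 237 to 328 CPM in Homo livers, 159 to 242 CPM in Het livers and 158 to 254 CPM in WT livers. Krt19 and Krt7, defining keratins of duct cells, were highest in Homo mouse 10, at 10.1 and 4.19 CPM, and lowest among Homo mice in mice 17 and 18, at 3.36 and 3.76 CPM for Krt19 and 1.05 and 1.03 CPM for Krt7. The part of these markers in the values of Bcam, Lama5 and Itgb4 was not tested.

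For the other 7 cell types 0 markers were called by edgeR in any comparison, with 0 to 2 a list at an unadjusted p under 0.05 in Het against WT and in Homo against Het; DESeq2 and limma-voom also called 0 in those 2. Sinusoidal endothelium had 4 of 8 markers at an unadjusted p under 0.05 in Homo against WT, 7 of 8 below 0 and a summed level of 223 to 264 CPM in Homo livers, 223 to 274 CPM in Het livers and 244 to 273 CPM in WT livers. Lyve1 was at -0.64 ± 0.16, Stab1 at -0.18 ± 0.06 and Oit3 at -0.27 ± 0.09 (adjusted p between 0.0907 and 0.233, edgeR's quasi-likelihood test), and DESeq2 called Lyve1. Vascular endothelium, where laminin alpha4 and alpha5 are also made, had 1 of 8 markers under that p and summed to 213 to 256 CPM in Homo livers, 227 to 247 CPM in Het livers and 234 to 257 CPM in WT livers, with Egfl7 at -0.24 ± 0.10, Cdh5 at -0.08 ± 0.05 and Cd34 at 0.29 ± 0.22. Stellate cell and fibroblast markers summed to 421 to 486 CPM in Homo livers, 385 to 461 CPM in Het livers and 347 to 550 CPM in WT livers, with 1 of 12 under that p. Of these 12, 8 lay above 0, among them Rgs5 at 0.22 ± 0.07, Pdgfra at 0.24 ± 0.16 and Lum at 0.29 ± 0.22, and 4 below 0, down to Acta2 at -0.19 ± 0.33.

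Mesothelium, the covering of the liver, had 1 of 6 markers under that p. It was Msln, at 2.31 to 6.34 CPM in Homo livers, 0.23 to 2.97 CPM in Het livers and 0.18 to 2.82 CPM in WT livers (log2 fold change of Homo against WT 2.02 ± 0.50, adjusted p = 0.083 with edgeR; called by DESeq2 and limma-voom). Its other 5 markers, among them Upk3b at 0.25 ± 0.33 and Wt1 at 0.18 ± 0.28, lay between -0.03 and 0.25. The 6 summed to 9.76 to 14.3 CPM in Homo livers, 6.46 to 13.4 CPM in Het livers and 3.20 to 12.1 CPM in WT livers. Hepatocyte markers had 2 of 10 under that p, with Ttr at -0.25 ± 0.11, Fgb at -0.22 ± 0.11 and Ass1 at -0.20 ± 0.10. Macrophage markers had 1 of 9, with Cd5l at -0.32 ± 0.12, Gpnmb at 0.44 ± 0.39 and Cd68 at 0.12 ± 0.11, and summed to 197 to 276 CPM in Homo livers, 222 to 243 CPM in Het livers and 210 to 278 CPM in WT livers. T and B cell markers had 0 of 6 tested, with Cd3e at 0.64 ± 0.33, Cd4 at 0.43 ± 0.30 and Cd8a at 0.64 ± 0.46, and 2 of 6 under that p in Homo against Het. All 8 T and B cell markers summed to 3.52 to 7.20 CPM in Homo livers, 2.81 to 4.14 CPM in Het livers and 3.34 to 4.54 CPM in WT livers. The part of these cell types in the values of the 10 genes was not tested.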

How the data were processed

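Raw counts by gene symbol, with a column for each mouse, are what the authors deposited. Per the submitters' processing notes, the tools were STAR 2.7.2b and featureCounts 1.6.4, on GRCm38. For settings, annotation, strand and multi-mapped reads the sources used here say nothing. RNA was prepared with Trizol, an RNeasy kit and a NuGen Ovation mouse kit, per the labels' protocols.

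The deposited counts were analysed in R 4.3.3 with edgeR 4.0.16: filterByExpr by genotype, TMM scaling, and the quasi-likelihood F test with Benjamini-Hochberg adjustment over all 16463 tested genes, two-sided. A single fit by genotype held all 19 libraries. SE is the log2 fold change over the square root of F. The r values use log2 CPM with a prior count of 2. Alternatives were DESeq2 1.42.0, limma-voom (limma 3.58.1), other scalings, filters and thresholds, the mouse number, and leaving out libraries; the slope on mouse number and leaving out Homo mice 8 and 10 together were chosen after seeing the data. Scripts were tested on simulated data. Of 142 list genes 135 were tested, 1 matched by an older symbol. Named beside the 10 genes are, from each of 14 lists, called genes and the 3 that rank first by p, Homo over WT, and the 3 genes most like each of the 10. Lama1, Lama3, Itgb1 and Acta2 were added after their values were seen, and some genes that the rule names are not reported here. The members and lists were chosen with earlier results of these data known. Rows named by a date, 27 in number, stayed in the totals. Libraries of the same genotype always differed by more than sampling noise (lowest chi-square over its degrees of freedom 21.6), so each counts as 1 sample. Depth was 25.8 to 42.1 M counts. Exon lengths and positions come from GENCODE, release M21.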

Additional observations from a re-analysis of the deposited data

Results flagged for a closer look

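Of the 30 groups formed by the 10 genes and 3 genotypes, 3 held a mouse that stood far from the others of its group; chance flags about 1 in 20 such groups. Itga6 in Homo replicate 1, mouse 8, was at 15.3 CPM, and the next Homo mouse at 10.8 CPM. Bcam in Het replicate 2, mouse 6, was at 1.46 CPM, and the next lowest Het mouse at 1.75 CPM. Lamb2 in WT replicate 4, mouse 9, was at 10.8 CPM, and the next WT mouse at 7.69 CPM.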

How the results depend on the processing

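No paired analysis was possible because the labels give the genotypes no shared replicate numbers. The count of all genes called in Homo against WT, 79, became 331 with DESeq2, 176 at an adjusted p under 0.10, 38 when the mouse number was a covariate, 25 with mice 1 to 3 left out, 2 within mice 8 to 13 and 35 without Homo mice 8 and 10. In Homo against Het, 30 became 113 with DESeq2, 51 at an adjusted p under 0.10, 16 with limma-voom, 0 within mice 14 to 20 and 1 without Homo mice 8 and 10. In Het against WT, 4 became 46 with DESeq2. Of the 10 genes, 3 were called in Homo against WT, with 0 within mice 8 to 13 and 1 without Homo mice 8 and 10. In Homo against Het 1 was called, with 3 by DESeq2, 3 at an adjusted p under 0.10, 0 within mice 14 to 20 and 0 without Homo mice 8 and 10. Leaving out 1 library gave 35 to 122 genes in Homo against WT, 4 to 7 in Het against WT and 9 to 34 in Homo against Het, and 2 to 3, 0 to 0 and 1 to 2 of the 10. The second of the 10 in Homo against Het was Lama5. The causes were not tested, though the fits within mice 8 to 13 and 14 to 20 hold fewer samples. Of 880 fold changes of the 10 genes under alternatives, 3 moved by at least the SD between replicates and 0 reversed after a call. The 880 include those at an adjusted p under 0.10, which repeat the main values. Many others come from fits that left out 1 library and so share most samples. A reversal could be counted only where a gene had been called, for 3 genes in Homo against WT and 1 in Homo against Het. Bcam had 44 to 72 reads per Het library and 46 to 68 per WT library, the fewest of the 10 genes.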
